A study of Homo sapiens with 12 samples.

Results

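The genes described here are those of mitochondrial complex I whose symbol starts with NDUF. They were taken by that symbol from the annotation of the array, which gave 35 genes on 40 probes, out of 24527 transcripts measured by 27648 features. They comprised 6 core subunits, 27 accessory subunits (acyl carrier protein included), 1 assembly factor (NDUFAF1) and NDUFA4, which keeps its old name but is now listed under the symbol COXFA4 and belongs to complex IV. A further 5 genes carry an NDUF name only under the current nomenclature and were described apart. Other complex I subunits were not analysed here.

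Complex I is the largest enzyme of the respiratory chain. Its matrix arm takes electrons from NADH through a flavin and a chain of iron-sulfur clusters to ubiquinone, and its membrane arm pumps protons across the inner mitochondrial membrane. Core subunits carry out the catalysis, accessory subunits surround them, and assembly factors leave the enzyme once it is built. Metformin is a biguanide used against diabetes and is known to inhibit complex I, whereas AICAR is a nucleoside that cells turn into an AMP mimic, which activates the energy sensor AMPK.

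The RNA came from LNCaP cells, an established human prostate cancer line, in 3 conditions: 5 mM metformin, 5 mM AICAR and no drug (control). The labels give 24 h of treatment for both drugs, while the legend of a plot in the study names a shorter time. Each of the 3 pairs of conditions was hybridised for 2 replicate numbers, read here as 2 independent cultures. Each replicate was run on a pair of arrays with the dyes Cy3 and Cy5 exchanged, which makes 12 arrays and 4 per comparison. Both RNAs of an array carry the same replicate number, which is read here as the same culture. A single cell line was used, and the arrays hold ratios rather than levels. Neither the level of one gene against another nor the markers of LNCaP cells could therefore be read from them.

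Values are log2 ratios, with a positive value where the first-named condition is higher. The sources name the dye of each RNA but neither the log base nor the direction of the deposited ratio. Here the Cy5 RNA was taken as the numerator and the base as 2, which is how limma writes ratios, so the direction is likely rather than stated. Read in this way, the stress genes DDIT3 (4.97), DDIT4 (3.28), SESN2 (2.48) and ATF4 (1.13) were higher and PPIF (−1.34) was lower with metformin than in control cells. For these genes the study describes the same directions, though by unlike measures. From its arrays it names DDIT4 (as REDD1), SESN2 and ATF4. For DDIT3 it gives the protein on a blot at an earlier time, and for PPIF (as cyclophilin D) the mRNA. A ratio is given as the fitted value with its moderated SE over 2 cultures, and a gene passed the test when limma's p, adjusted by Benjamini-Hochberg over the 24527 transcripts, was below 0.05 with a log2 ratio above 0.7 or below −0.7, a change of 1.62-fold. In bulk RNA, fewer cells and less RNA per cell cannot be told apart.

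NDUF genes passed the test in 1 of the 3 comparisons, that of the drugs with each other. Of the 35 NDUF genes, 4 (11.4%) were lower with metformin than with AICAR and 0 were higher, while 2.01% of all transcripts passed as lower and 4.59% as higher. The 4 genes were NDUFS1, NDUFA9, NDUFB5 and NDUFB7, at 1.68-fold to 1.81-fold lower. When 3 arrays of culture 1 whose slide numbers stand apart were left out, 2 genes passed as lower, NDUFS1 and NDUFB3. Without the threshold on the ratio, 7 genes (20%) were lower and 0 higher, against 4.25% and 6.72% of all transcripts, and NDUFA10, NDUFB3 and NDUFA2 joined the list. At an unadjusted p below 0.05, 13 genes (37.1%) lay below 0 and 2 (5.71%) above 0, against 13.4% and 12.9% of all transcripts. The fitted ratio of metformin to AICAR is the difference of the ratios of each drug to control, and the 3 comparisons share their RNA, so they are not independent.

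**Figure D1:**
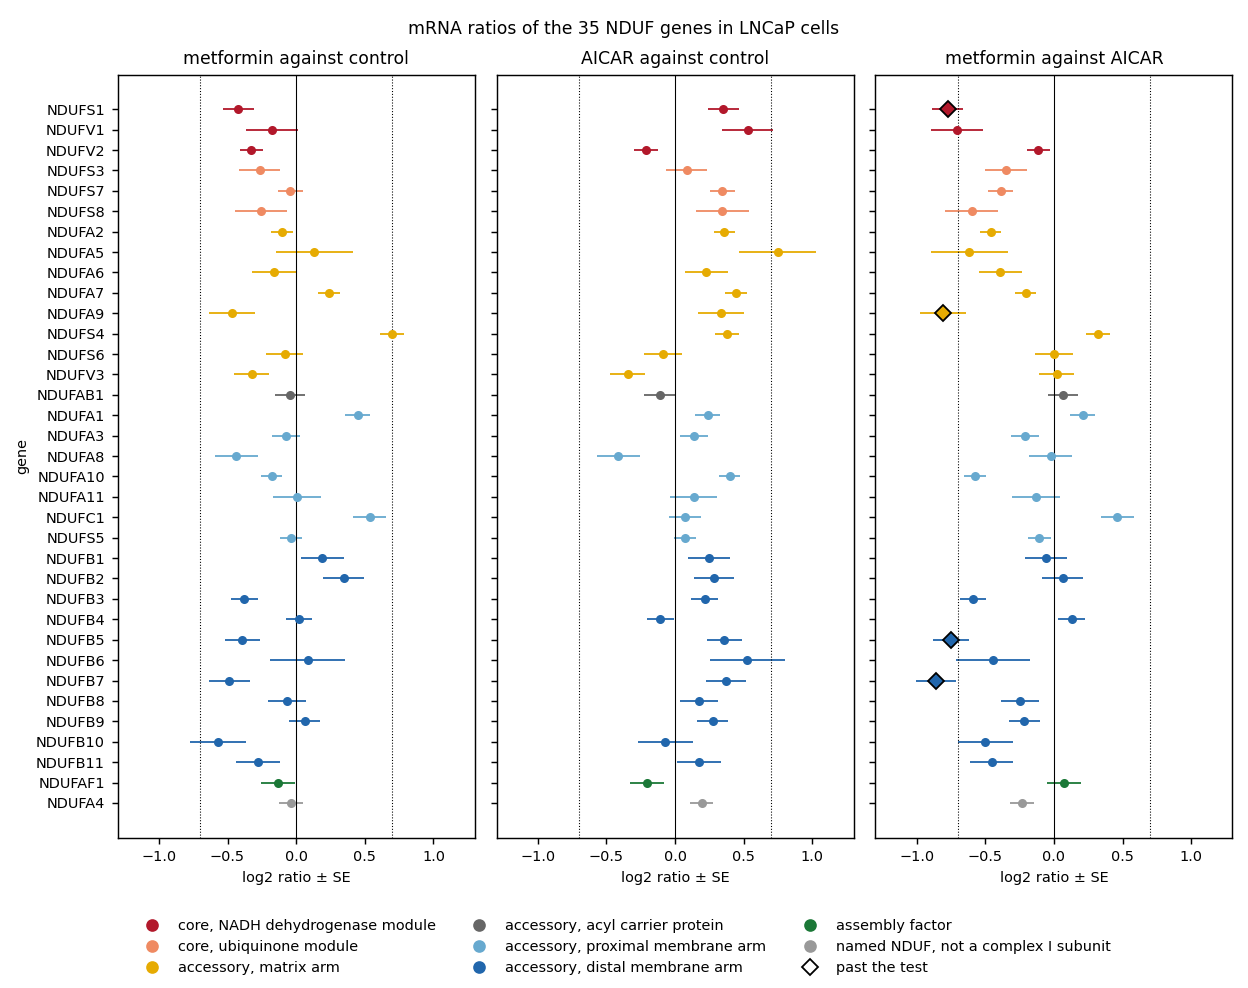
Fitted log2 ratios (x axis) with moderated SE of the 35 NDUF genes (rows, coloured by the place of the subunit in complex I) in 3 comparisons (each drug with control, then metformin with AICAR); dotted lines mark 0.7 and −0.7 and diamonds the genes past the test. The 4 diamonds all lie in the comparison of metformin with AICAR, between −0.75 and −0.86.

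Among the core subunits, NDUFS1, the largest of them and the carrier of several iron-sulfur clusters near the site of NADH oxidation, was the 1 gene past the test. For it and all genes below, the 4 array values run culture 1 with the first-named RNA in Cy5, culture 1 in Cy3, culture 2 in Cy5 and culture 2 in Cy3. With metformin against AICAR, NDUFS1 read −0.62, −0.63, −0.72 and −1.08, which gave a ratio of −0.77 (SE 0.11, 95% CI −1.06 to −0.48, adjusted p = 0.0212 by limma). All 4 arrays lay below 0 and the cultures gave −0.67 and −0.87. NDUFS1 passed under every alternative fit that gave a test. Against control it read −0.30, −0.24, −0.62 and −0.54 with metformin (ratio −0.42, adjusted p = 0.143), and 0.59, 0.39, 0.32 and 0.14 with AICAR (ratio 0.35, adjusted p = 0.177). Each drug thus kept 1 sign on its 4 arrays against control without passing the test.

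The other 5 core subunits also had ratios below 0 for metformin against AICAR. NDUFV1, which binds NADH and the flavin, read −0.25, −0.41, −0.89 and −1.38 (ratio −0.70, SE 0.19, adjusted p = 0.0879), with culture 1 at −0.32 and culture 2 at −1.08. NDUFS8, an iron-sulfur subunit of the ubiquinone module, was at −0.60 (adjusted p = 0.131), and it differed between the cultures too, at −0.25 and −0.95. NDUFS7, which carries the last cluster before ubiquinone, was at −0.39, NDUFS3 at −0.35 and NDUFV2 at −0.11. The median of the 6 core genes was −0.49 for metformin against AICAR, −0.26 for metformin against control, where 6 of 6 lay below 0, and 0.34 for AICAR against control, where 5 of 6 lay above 0. The medians of all transcripts in the same comparisons were −0.03, −0.00 and 0.04. NDUFV2 was the core gene below 0 with AICAR, at −0.21 (adjusted p = 0.252).

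In the accessory part of the matrix arm, NDUFA9, which sits at the junction with the membrane arm near the ubiquinone site, read −0.38, −0.50, −1.04 and −1.23 for metformin against AICAR. Its ratio was −0.81 (SE 0.17, 95% CI −1.24 to −0.37, adjusted p = 0.0478 by limma). The 4 arrays lay below 0, with culture 2 (−1.14) further from 0 than culture 1 (−0.48), and the call was lost under 5 alternative settings, whose adjusted p lay between 0.0512 and 0.12. Against control, NDUFA9 read −0.25, −0.34, −0.73 and −0.63 with metformin (ratio −0.47, adjusted p = 0.25) and 0.40, 0.11, 0.48 and 0.44 with AICAR (ratio 0.34, adjusted p = 0.332). The study describes more NDUFA9 protein with metformin on a blot, the other direction from the mRNA ratio here and by an unlike measure. NDUFA2, a small subunit with a thioredoxin-like fold, varied little between arrays, with −0.32, −0.62, −0.50 and −0.50 for metformin against AICAR. Its ratio of −0.46 (SE 0.08, adjusted p = 0.0302) passed on p and stayed short of the threshold on size.

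NDUFS4 lay above 0 in all 3 comparisons. It encodes a subunit added late to the NADH end of the matrix arm and is mutated in Leigh syndrome. With metformin against control it read 0.61, 0.63, 0.91 and 0.71, giving 0.70 (SE 0.09, adjusted p = 0.028 by limma), a value of 0.6988 before rounding that lies just under the 0.7 limit. It was the 1 NDUF gene past the adjusted p in this comparison, and it missed it with direct ratios (0.71, adjusted p = 0.104) and without the 3 arrays whose slide numbers stand apart (0.73, adjusted p = 0.0538). With AICAR against control it read 0.39, 0.46, 0.26 and 0.35 (ratio 0.38, adjusted p = 0.0912), and with metformin against AICAR 0.14, 0.32, 0.37 and 0.40 (ratio 0.32, adjusted p = 0.0879). None of its 12 array values was below 0.

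The distal membrane arm held 2 of the 4 genes lower with metformin than with AICAR. NDUFB7, a subunit with paired cysteines on the intermembrane space side, read −0.73, −0.85, −0.96 and −0.91, the tightest of the 4 between arrays. Its ratio was −0.86 (SE 0.15, 95% CI −1.24 to −0.48, adjusted p = 0.0309), the lowest of all NDUF genes. Against control it read −0.54, −0.83, −0.29 and −0.27 with metformin (ratio −0.49, adjusted p = 0.185) and 0.35, −0.17, 0.63 and 0.66 with AICAR (ratio 0.37, adjusted p = 0.25). NDUFB5, which crosses the membrane once and belongs to the same part, read −1.24, −0.25, −0.98 and −0.27 (ratio −0.75, SE 0.13, adjusted p = 0.0305). Its values split by dye and not by culture, as both arrays with metformin in Cy5 were lower than both with metformin in Cy3. Dye-swap partners were averaged before the fit, so the SE does not hold this gap between the dyes. NDUFB5 passed with a dye term, in a fit that took the arrays as separate data points. It lost the call with direct ratios, with scaled arrays and without the 3 arrays whose slide numbers stand apart. Leaving those arrays out keeps, for AICAR against control in culture 1, only the array with AICAR in Cy3, where NDUFB5 read 1.61. The dyes are thus not balanced in that setting. Against control the values followed the dye too. NDUFB5 read −1.27, 0.46, −0.86 and −0.16 with metformin, and −0.17, 1.61, −0.28 and 0.53 with AICAR.

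NDUFB3, another small distal subunit, read −1.48, −0.26, −0.80 and −0.38 for metformin against AICAR (ratio −0.59, SE 0.10, adjusted p = 0.027). In culture 1 its direct ratio was −0.87, while the route through control gave −0.19. In culture 2 the values were −0.59 and −0.45. The SE does not hold this gap between the routes. NDUFA10, a subunit of the proximal membrane arm with a fold related to nucleoside kinases, was measured by 4 probes. Their mean read −0.32, −0.68, −0.35 and −0.88 (ratio −0.58, SE 0.08, adjusted p = 0.0177, the smallest among NDUF genes). Taken singly, the 4 probes gave −0.36, −0.53, −0.67 and −0.75, and the last passed the test (adjusted p = 0.0256). NDUFB10, which also has paired cysteines, was lowest against control with metformin, at −0.19, −0.82, −0.56 and −0.69 (ratio −0.57, adjusted p = 0.246), and for metformin against AICAR it was near 0 in culture 1 (−0.10) and low in culture 2 (−0.90). The 11 genes of the distal arm had a median of −0.44 in that comparison, with −0.21 in culture 1 and −0.48 in culture 2, and 9 lay below 0. The 7 of the proximal arm had a median of −0.11 with 5 below 0, but it was 0.09 in culture 1 and −0.29 in culture 2, so it has no settled sign. Of all transcripts, 58.1% lay below 0.

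**Figure D2:**
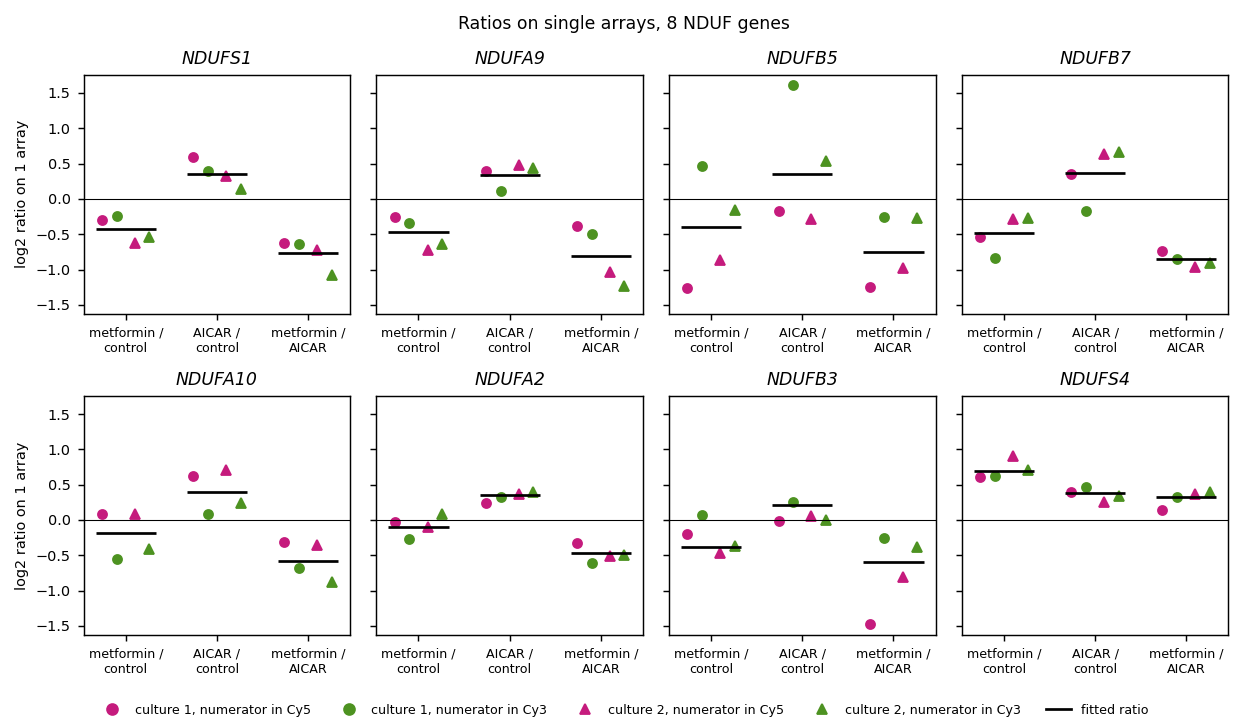
Log2 ratios of 8 NDUF genes on each array (y axis) in the 3 comparisons (x axis); circles and triangles are cultures 1 and 2, colours give the dye of the first-named RNA, and bars are fitted ratios. For metformin against AICAR the 7 genes other than NDUFS4 lie below 0 on all 4 arrays, and NDUFB5, NDUFB3 and NDUFA10 split by dye.

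At the other end of the comparison between the drugs stood NDUFC1, a small subunit of the proximal membrane arm. It read 0.03, 0.54, 0.63 and 0.77 for metformin against AICAR (ratio 0.46, SE 0.12, adjusted p = 0.0789) and 0, 0.73, 0.44 and 0.85 for metformin against control (ratio 0.54, SE 0.12, adjusted p = 0.0958). The value of exactly 0 may be a spot without an estimate, as 8 to 19 features of every array hold exactly 0. NDUFB10 had such a value on 1 array of metformin against AICAR. NDUFA1, an X-linked subunit in the proximal arm, read 0.14, 0.70, 0.34 and 0.64 for metformin against control (ratio 0.45, SE 0.09, adjusted p = 0.0787) and −0.07, 0.16, 0.20 and 0.54 for metformin against AICAR (ratio 0.21). NDUFB4 (0.13) and NDUFAF1 (0.07) followed in the second comparison. NDUFB4 read −0.19, 0.23, 0.14 and 0.30, and the assembly factor NDUFAF1 read 0.44, 0.14, 0.05 and −0.36, so neither kept 1 sign on its arrays.

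Promoters from the RefSeq table for GRCh38.p14 are printed for the 3 of the 4 genes lower with metformin than with AICAR that have one. NDUFS4 is printed as well, because it passed the adjusted p for metformin against control. Between the drugs it was above 0 (0.32) without passing the test, and NDUFC1 was higher (0.46). The sequences run from 250 bases before to 50 after the first listed start, on the strand of the gene. Capitals mark matches to the motifs searched on both strands, which were CGCATGCG (NRF1), CCAAT, CCGGAAGT (ETS), AAGATGGCG (YY1), TCAAGGTCA (ERRA) and TTGCATCA (the ATF4 and C/EBP composite). NDUFA9 lies at chr12:4648864-4649163 on the plus strand, NDUFS4 at chr5:53560389-53560688 on the plus strand, NDUFS1 at chr2:206159395-206159694 on the minus strand and NDUFB7 at chr19:14572017-14572316 on the minus strand.
NDUFA9: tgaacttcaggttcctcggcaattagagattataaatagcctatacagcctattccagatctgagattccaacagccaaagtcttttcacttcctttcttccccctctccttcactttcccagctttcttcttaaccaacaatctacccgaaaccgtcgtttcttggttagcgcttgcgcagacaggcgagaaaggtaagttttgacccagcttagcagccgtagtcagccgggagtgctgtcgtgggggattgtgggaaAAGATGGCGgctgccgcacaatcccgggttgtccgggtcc
NDUFS4: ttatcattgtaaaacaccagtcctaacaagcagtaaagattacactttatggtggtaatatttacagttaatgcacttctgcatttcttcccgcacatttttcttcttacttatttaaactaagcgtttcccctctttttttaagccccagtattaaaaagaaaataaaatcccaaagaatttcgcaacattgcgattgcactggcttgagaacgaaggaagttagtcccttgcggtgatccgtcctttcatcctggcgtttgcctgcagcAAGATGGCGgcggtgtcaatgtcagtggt
NDUFS1: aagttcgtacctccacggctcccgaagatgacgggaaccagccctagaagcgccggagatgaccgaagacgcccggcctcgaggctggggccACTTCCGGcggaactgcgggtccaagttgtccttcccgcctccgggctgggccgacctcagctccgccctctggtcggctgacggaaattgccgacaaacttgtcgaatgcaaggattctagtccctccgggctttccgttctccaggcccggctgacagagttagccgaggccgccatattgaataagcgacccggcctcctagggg
NDUFB7: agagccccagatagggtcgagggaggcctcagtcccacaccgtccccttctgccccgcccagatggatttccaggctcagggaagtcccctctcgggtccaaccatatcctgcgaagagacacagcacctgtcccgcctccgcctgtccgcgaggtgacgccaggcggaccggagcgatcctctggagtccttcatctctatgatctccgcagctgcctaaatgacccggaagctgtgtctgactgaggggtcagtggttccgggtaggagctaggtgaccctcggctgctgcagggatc
The YY1 letters began 11 bases into the transcript of NDUFA9 and 22 bases into that of NDUFS4, on the strand of the gene. NDUFS1 held the ETS letters on the opposite strand at position −158 from its start, and NDUFB7 held none of the 6 motifs. The YY1 letters were thus in NDUFA9, which was lower with metformin than with AICAR, and in NDUFS4. NDUFS4 was above 0 in that comparison without passing the test.

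Promoters were found for 32 of the 35 NDUF genes (all but NDUFB5, NDUFB9 and NDUFS5). The YY1 letters stood in 5 of them (15.6%), in NDUFA6, NDUFA7, NDUFA9, NDUFS4 and NDUFS7, and in 1.85% of the 27305 promoters of the table. In these 5 genes they began 11 to 26 bases into the transcript, on the strand of the gene. The YY1 letters include ATG, and overlap with a start codon was not examined. The NRF1 letters stood in 4 (12.5%), in NDUFA8, NDUFB4, NDUFS6 and NDUFS7, and in 2.19% of all. CCAAT was in 7 (21.9%), with 35.7% of all, and the ETS letters in 1 (3.12%), with 4.44% of all. The ERRA and ATF4 composite letters were in 0 of the 32, with 0.359% and 0.923% of all. These are matches of letters in a window of 300 bases and were given no test.

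For metformin against control, 0 NDUF genes passed in either direction, while 1.5% of all transcripts were higher and 1.24% lower. On the adjusted p alone 1 gene (2.86%) was higher, NDUFS4, and 0 were lower, against 2.06% and 1.66% of all transcripts. At an unadjusted p below 0.05, 4 genes (11.4%) were above 0 and 8 (22.9%) below 0, against 8.94% and 8.61%. The fit to the direct ratios called 0 of the 24527 transcripts in either direction here, and the other alternatives called 0 or 1 NDUF gene higher and 0 lower. The median NDUF ratio was −0.08, with 24 of 35 genes below 0, where the median transcript was at −0.00 and 50% lay below 0.

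Below 0 with metformin against control, the lowest after NDUFB10, NDUFB7 and NDUFA9 was NDUFA8, a cysteine-rich subunit on the intermembrane space side. It read −0.31, −0.40, −0.75 and −0.27 (ratio −0.44, SE 0.16, adjusted p = 0.25). Above 0, after NDUFS4, NDUFC1 and NDUFA1, came NDUFB2 at −0.21, 0.47, 0.53 and 0.64 (ratio 0.35, adjusted p = 0.336) and NDUFA7 at −0.51, 1.08, −0.25 and 0.91 (ratio 0.24, adjusted p = 0.221). NDUFA7, of the matrix arm, changed sign with the dye in both cultures. In all, 8 genes (22.9%) lay below 0 on all 4 arrays and 2 (5.71%) above 0, with 12.5% and 13.6% of all transcripts. In culture 1, both arrays of this comparison and 1 of those that set AICAR beside control carry slide numbers apart from the remaining 9. Their part in the results was not tested beyond leaving them out. Leaving them out keeps only the array with AICAR in Cy3 for AICAR against control in culture 1, so the dyes are then not balanced.

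For AICAR against control, 0 NDUF genes passed in either direction, while 0.453% of all transcripts were higher and 2.89% lower. On the adjusted p alone 0 were higher and 0 lower, against 0.767% and 3.86%. At an unadjusted p below 0.05, 10 genes (28.6%) lay above 0 and 2 (5.71%) below 0, against 10.1% and 10.8%. With the 12 arrays taken as separate data points, 1 gene, NDUFA5, passed as higher. The median NDUF ratio was 0.23, with 27 of 35 genes (77.1%) above 0, while the median transcript was at 0.04 and 60.4% lay above 0. Without culture 2 the NDUF median was 0.0952, and without culture 1 it was 0.26. On all 4 arrays, 10 genes (28.6%) were above 0 and 2 (5.71%) below, with 16.1% and 13.3% of all transcripts.

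The highest with AICAR was NDUFA5, a matrix arm subunit, which read 0.39, 1.77, 0.34 and 0.53 (ratio 0.75, SE 0.28, adjusted p = 0.228). A single array of culture 1 stood far above the other 3. NDUFV1 read 0.34, 0.43, 0.74 and 0.50 (ratio 0.53, adjusted p = 0.21), above 0 on each array. NDUFB6, a distal subunit, read −0.07, 1.99, −0.12 and 0.45 (ratio 0.53, adjusted p = 0.35), and NDUFA7 read −0.49, 1.27, −0.11 and 0.84 (ratio 0.44, adjusted p = 0.0544), both with signs that followed the dye. NDUFA10 was above 0 throughout, at 0.63, 0.09, 0.70 and 0.24 (ratio 0.40, adjusted p = 0.0668).

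The lowest with AICAR was NDUFA8, with −0.57, −0.73, −0.28 and −0.09 (ratio −0.41, adjusted p = 0.23), a gene that lay below 0 with metformin as well. NDUFV3, an accessory subunit of the NADH end, read −0.51, −0.53, −0.30 and 0.12 (ratio −0.34, adjusted p = 0.224), and NDUFV2 read −0.35, −0.14, −0.30 and −0.08 (ratio −0.21). NDUFAF1, which helps to build the membrane arm, read 0.11, −0.60, 0.06 and −0.39 (ratio −0.20), following the dye. NDUFAB1, the mitochondrial acyl carrier protein, read −0.40, 0.57, −0.31 and −0.17 (ratio −0.11).

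By array, the median of the 35 NDUF genes lay between −0.35 and −0.15 on the 4 arrays of metformin against AICAR, where 22 to 28 genes were below 0. It lay between −0.20 and −0.11 on those of metformin against control and between 0.03 and 0.35 on those of AICAR against control. The median of all transcripts stayed between −0.05 and 0.05 on the 12 arrays. For metformin against AICAR, 14 NDUF genes (40%) were below 0 on all 4 arrays and 2 (5.71%) above, with 22.3% and 16.8% of all transcripts.

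**Figure D3:**
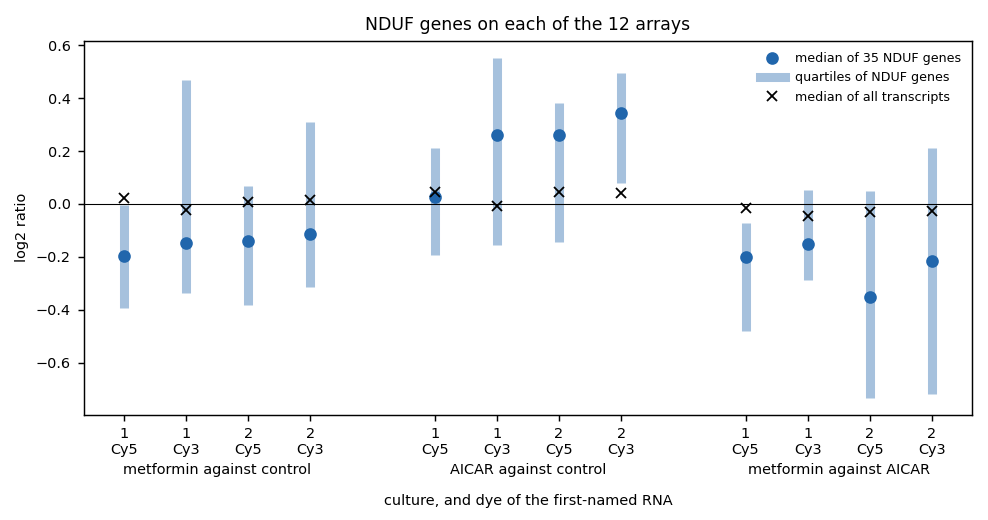
Median (dots) and quartiles (bars) of the log2 ratio (y axis) of the 35 NDUF genes on each of the 12 arrays (x axis, by comparison, culture and dye), with the median of all transcripts as crosses. The NDUF median is below 0 on the 8 arrays with metformin RNA and above 0 on the 4 of AICAR against control, where 1 array of culture 1 is at 0.03.

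The dye mattered for several members. Averaged over the comparisons, the ratio was lower by 1.22 for NDUFA7, by 1.13 for NDUFB6 and by 1.12 for NDUFB5 when the first-named RNA carried Cy5 (differences of −1.22, −1.13 and −1.12 in log2). Each comparison holds both orientations equally, so these differences cancel in its mean. This does not hold for the fit without the 3 arrays whose slide numbers stand apart. The partners of a dye swap gave the same sign for 28 of 35 NDUF genes (80%) in each culture of metformin against AICAR, for 18 and 20 genes in metformin against control and for 16 and 24 in AICAR against control. Over all transcripts the share ran from 50.6% to 65.6%. Across the 35 genes, the fitted ratios of the cultures correlated at 0.35 between the drugs, at 0.63 for metformin against control and at 0.32 for AICAR against control. Over all transcripts the values were 0.78, 0.62 and 0.71 in the same order, higher than over the NDUF genes in 2 of the 3. These are descriptions over genes that share arrays and RNA.

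Where genes had several probes, NDUFA11 and NDUFS7 disagreed in sign between them. NDUFA11, of the proximal membrane arm, read 0.06, −0.34, −0.16 and 0.40 for metformin against control (ratio 0.01), and its probes gave −0.10 and 0.11. NDUFS7 read 0.02, −0.26, −0.16 and 0.03 (ratio −0.04), with probes at −0.09 and 0.01. Both sit too near 0 for a direction. Of the 5 genes named NDUF only under current symbols (NDUFA12, NDUFA13, NDUFAF4, NDUFAF5 and NDUFAF7), 0 passed in any comparison by limma, and at an unadjusted p below 0.05 there was 1 above 0 for metformin against control (8.94% of all transcripts), 1 below 0 for AICAR against control (10.8%) and 1 above 0 for metformin against AICAR (12.9%). NDUFAF4, an assembly factor, came nearest at −0.43 for AICAR against control (adjusted p = 0.0549), and NDUFA12, of the matrix arm, was at 0.48 for metformin against control (adjusted p = 0.158).

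The rest of the respiratory chain was described by lists of the same kind. For metformin against AICAR the median was −0.55 over the 5 measured genes of complex II, −0.22 over 13 of complex III, 0.04 over 25 of complex IV and −0.38 over 19 of complex V, beside −0.23 over the 35 NDUF genes. In the same order the medians were 0.44, −0.05, 0.19 and 0.19 for AICAR against control, beside 0.23 over the NDUF genes. They were −0.11, −0.18, 0.12 and −0.10 for metformin against control, beside −0.08. For metformin against control, 1 of 25 complex IV genes passed as higher, with 1.5% of all transcripts. This was COX7A2L, a factor that helps to join complexes into supercomplexes (ratio 1.25, SE 0.11, adjusted p = 0.0147). It was also higher with metformin than with AICAR, at 0.88 (adjusted p = 0.0145). COX16, an assembly factor of complex IV, was lower in that comparison at −0.97 (adjusted p = 0.0103), as was UQCRB of complex III at −0.72 (adjusted p = 0.0429). Each was the 1 gene of its complex that passed as lower, out of 25 and 13. Of all transcripts, 2.01% passed as lower and 4.59% as higher there. Complexes II and V had 0 genes past the test in any comparison, where the background shares given above ran from 0.453% to 4.59%. For metformin against AICAR at an unadjusted p below 0.05, 3 of 5 genes of complex II, 5 of 13 of complex III, 5 of 25 of complex IV and 9 of 19 of complex V were below 0, with 13.4% of all transcripts. Above 0 there were 0, 1, 4 and 0 genes in the same order of complexes, with 12.9% of all transcripts.

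Of 8 complex I assembly genes with other names, 1 passed, AIFM1, a mitochondrial flavoprotein needed for the import of respiratory chain subunits, at −1.08 for metformin against AICAR (adjusted p = 0.0318), where 2.01% of all transcripts passed as lower. Among 12 regulators of mitochondrial gene expression, TFAM, which packages mitochondrial DNA and helps to start its transcription, was lower with metformin than with AICAR at −1.01 (adjusted p = 0.024). Against control TFAM was at 0.66 with AICAR (adjusted p = 0.0991 by limma) and at −0.35 with metformin (adjusted p = 0.346), so it passed against control with neither drug. The study describes more TFAM and NRF1 protein with metformin on blots, an unlike measure. The mRNA of NRF1 was at 0.37 with metformin against control (adjusted p = 0.125 by limma). YY1, a transcription factor, was lower with metformin than with AICAR at −1.06 (adjusted p = 0.0229) and higher with AICAR than in control cells at 0.97 (adjusted p = 0.0449). Of all transcripts, 2.01% and 0.453% passed in these directions. On the adjusted p alone, TFB1M (0.66, adjusted p = 0.0252 by limma) and NRF1 (0.52, adjusted p = 0.0325) were higher with metformin than with AICAR, with 6.72% of all transcripts. At an unadjusted p below 0.05, 4 of the 12 lay above 0 and 2 below 0 between the drugs, with 12.9% and 13.4% of all transcripts. The median of this list was 0.11 between the drugs, −0.12 with AICAR against control and −0.00 with metformin against control. Complex I genes of the mitochondrial genome were not analysed here.

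**Figure D4:**
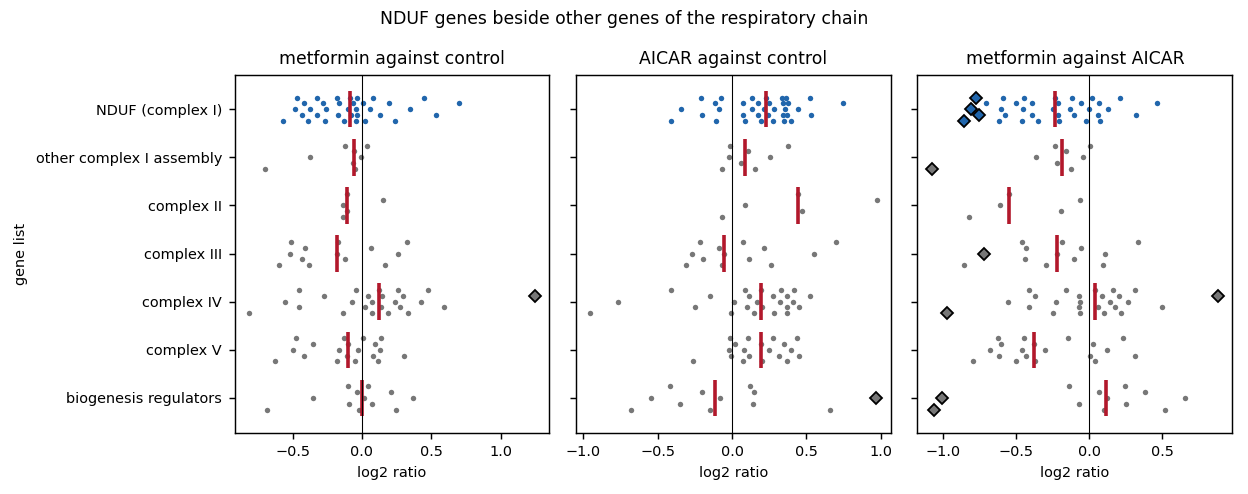
Log2 ratios (x axis) of single genes (dots) in lists of the respiratory chain (rows) for the 3 comparisons, with the median of each list as a red bar and genes past the test as diamonds. For metformin against AICAR the NDUF median is −0.23, beside −0.55 for complex II, −0.38 for complex V and 0.04 for complex IV.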

How the data were processed

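Pairs of RNAs from LNCaP cells were hybridised to 12 two-colour arrays printed with a human oligonucleotide collection. The authors deposited log2 ratios (the base is assumed) after print-tip loess within slides and quantile normalisation between slides in limma. Its version, the background correction, the log base and the direction are not given in the sources used here. No intensities were used, so dim spots could not be filtered, and precision is limited by how few arrays there are.

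Probes were named by accession (14604) or by symbol (2899) through RefSeq, 91 kept the listed symbol, and 117 with conflicting names stayed unnamed. Probes of a gene were averaged. Dye-swap partners were averaged, least squares turned the 6 means into levels of the 6 extracts, and treatment and culture were fitted with limma 3.58.1 in R 4.3.3 (2 residual and 2.88 prior degrees of freedom). The replicate number pairs samples, since both RNAs of an array carry the same number, which is read as the same culture. With 2 cultures, p-values measure the spread between them. The fit was tested on simulated data.

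Array values are given for NDUF genes past the test, for the 5 highest and 5 lowest of each comparison, for NDUFA9 and for genes whose probes differ in sign, and from other lists the genes past the test are named. The members and lists were chosen with earlier results of these data known. Alternatives were 12 separate arrays, direct ratios, 6 ratios, a dye term, no ratio threshold, centred or scaled arrays, single probes, robust variances, named transcripts only, current symbols, NDUFA4 left out, 3 arrays left out and each culture left out.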

Additional observations from a re-analysis of the deposited data

Results flagged for a closer look

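NDUFA5 had 2 arrays that stood well away from their companions. For metformin against control, the array of culture 1 with metformin in Cy5 read −0.84, while the others lay between 0.39 and 0.50. For AICAR against control, the array of culture 1 with AICAR in Cy3 read 1.77, while the others lay between 0.34 and 0.53. Of 105 groups of 4 arrays examined, 2 stood out in this way, and chance marks about 1 in 20, which would be 5.25.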

How the results depend on the processing

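Every ratio exists within a culture, so the replicate block is part of the fit as reported, with 4 NDUF genes lower with metformin than with AICAR and medians of −0.08, 0.23 and −0.23 for metformin against control, AICAR against control and the drugs against each other. No fit without the pairing was possible. Leaving out either culture moved these medians between −0.117 and −0.0716, between 0.0952 and 0.26 and between −0.27 and −0.20. For metformin against AICAR, the count of lower NDUF genes was 2 without the 3 arrays whose slide numbers stand apart and 7 on the adjusted p alone. For metformin against control, 1 NDUF gene (NDUFS4) was higher with scaled arrays and on the adjusted p alone, which it missed with direct ratios (0.104) and without the 3 arrays (0.0538). For AICAR against control, 1 (NDUFA5) was higher with 12 separate arrays and with a dye term.

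NDUFS1 passed throughout. NDUFB7 lost its call without the 3 arrays (adjusted p = 0.0977). In that setting AICAR against control in culture 1 rests on the array with AICAR in Cy3 alone, so the dyes are not balanced. NDUFB5 lost it with direct ratios (ratio −0.69), scaled arrays (adjusted p = 0.0524) and without the 3 arrays (adjusted p = 0.427), and NDUFA9 with direct ratios, centred arrays, robust variances, single probes and without the 3 arrays. Signs near 0 turned for NDUFA11 against control with metformin (−0.0115 with direct ratios, −0.0034 with scaled arrays, −0.0556 without the 3 arrays, −0.0969 for 1 probe) and against AICAR (0.057 for 1 probe), for NDUFS7 with metformin against control (0.15 without the 3 arrays, 0.0081 for 1 probe) and for NDUFAB1 with AICAR (0.14 without the 3 arrays). In these settings 436 values kept direction and side of the threshold, 13 gained a call, 9 lost one and 8 turned, and the causes were not tested. Of the 35 NDUF genes, 22 kept 1 sign across cultures for metformin against control, 26 for AICAR against control and 27 between the drugs. The same held for 15127, 16757 and 17236 of the 24527 transcripts. Leaving out a culture gives values with no test. Among 41 results, mostly genes at the ends of a comparison or past the test, it turned 5, all without a call. These were NDUFA11 (−0.117 to 0.13 for metformin against control, −0.21 to 0.48 for AICAR against control, −0.35 to 0.0944 for metformin against AICAR), NDUFAB1 with AICAR against control (−0.30 to 0.0731) and NDUFAF1 for metformin against AICAR (−0.14 to 0.28). Over all transcripts, the counts for metformin against control ran from 0 with direct ratios to 521 higher and 468 lower with a dye term, those for AICAR against control from 59 to 278 higher and from 380 to 970 lower, and those for metformin against AICAR from 812 to 1648 higher and from 314 to 1042 lower.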
